A study of Mus musculus with 4 samples.

Results

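The genes described here encode the factors that start and lengthen protein chains on cytosolic ribosomes, and the peaks described are places in these genes where RNA was recovered with the RNA-binding protein MSI2 in mouse intestinal epithelium. Members were taken by symbol: protein-coding genes whose symbol begins with Eif1 to Eif6 or with Eef1 or Eef2, without Eif2s3y and without the kinases Eif2ak1 to Eif2ak4 and Eef2k. The rule gave 65 of 21896 protein-coding genes of the RefSeq gene table for GRCm38.p6, the assembly also called mm10. A member counts as holding a peak where a deposited peak and its gene span have 1 base or more in common.

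The study used CLIP-seq, which reads the RNA fragments that ultraviolet light has fixed to a protein and that an antibody then pulls down with it. TRE-Msi2 mice carry a doxycycline-inducible Msi2 transgene, and their 2 libraries came from total intestinal epithelial cells after 24 hours of doxycycline. The 2 WT libraries came from crypts, with no doxycycline recorded, and all mice were C57BL6. Epithelium was irradiated at 265 nm with 400 mJ/cm2 in 2 pulses, MSI2 was precipitated, and material of about 50 kD was taken. Genotype, tissue fraction and doxycycline differ together between the lists and cannot be told apart. Without a measure of input or RNA level, an abundant transcript and a strongly bound one can give the same peak, and fewer cells of a type and less RNA per cell cannot be told apart either.

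The deposited data are 1 pooled peak list per genotype, so values have no replicate error and nothing was tested between genotypes. The TRE-Msi2 list held 16939 peaks and the WT list 12061. Each peak has a score, the authors' value, which in peaks of 1 bin of 200 nt behaves as a number of reads. Wider peaks have fractional scores, and how these were made is not stated. They are not a plain mean over the bins, since in 400-nt peaks only 56.5% of TRE-Msi2 and 61.8% of WT scores were multiples of 0.5 (tolerance 0.02 on the doubled score). The median score was 24.7 in the TRE-Msi2 list and 19 in the WT list, and the depth of the libraries is unknown, so scores are read against others of the same list. Peaks of 1 bin scored no lower than 20 in TRE-Msi2 and 15 in WT; if they are counts, their exact Poisson 95% bounds are 12.2 and 30.9 in TRE-Msi2, and 8.40 and 24.7 in WT, for counting error only. Epithelial markers were well represented: 10 of 10 enterocyte, 5 of 5 Paneth and 5 of 6 goblet genes held a peak in both lists. Of 7 stromal and 4 red cell markers, 0 did in either list, while 3 of 6 immune markers did in both.

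Translation starts when the eIF2 complex, loaded with GTP and the initiator tRNA, joins the small ribosomal subunit together with eIF1, eIF1A, eIF3 and eIF5, and eIF2B recharges eIF2 with GTP afterwards. The eIF4F complex, made of the cap-binding protein eIF4E, the scaffold eIF4G and the helicase eIF4A, brings the messenger RNA, and the 4E-binding proteins block it by occupying eIF4E. During elongation eEF1A delivers aminoacyl-tRNA and eEF2 moves the ribosome along. Musashi proteins bind RNA, mostly in 3′ untranslated regions, and are known as regulators of translation and of stem cells. Many genes of the translation machinery begin their transcripts with a run of pyrimidines, the 5′ terminal oligopyrimidine tract, through which growth signals control them.

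Starts of 6 factor genes are shown because they separate genes with letters of such a tract near the annotated start from genes without them. No peak lay at any of these starts, and peaks there were rare in all genes. The sequences are those of RefSeq GRCm38.p6, written 5′ to 3′ on the strand of the gene, from 30 bases before the annotated start through the 30 bases that follow. Capitals mark a tract, by which is meant CTTTT or CTCTT, and likewise CCTTT or else CTTTC. These share letters (CCTTT runs on into CTTTT or into CTTTC), and a gene with several was counted once. The first 3 genes have these letters and the last 3 have none within 50 bases on either side of the start. The letters alone do not show that a transcript begins with them. The Eef1a1 line is chr9:78481695-78481754 on the minus strand, Eef2 is chr10:81176601-81176660 on the plus strand and Eif2s3x is chrX:94212622-94212681 on the minus strand. Eif1 is chr11:100319919-100319978 on the plus strand, Eif4a2 is chr16:23107438-23107497 on the plus strand and Eif4h is chr5:134639380-134639439 on the minus strand.
Eef1a1: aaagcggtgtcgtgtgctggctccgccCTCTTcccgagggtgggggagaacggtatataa
Eef2: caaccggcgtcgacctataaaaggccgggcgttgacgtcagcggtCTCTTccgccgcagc
Eif2s3x: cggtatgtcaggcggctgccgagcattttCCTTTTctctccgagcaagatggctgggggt
Eif1: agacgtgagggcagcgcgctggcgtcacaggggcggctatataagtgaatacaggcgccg
Eif4a2: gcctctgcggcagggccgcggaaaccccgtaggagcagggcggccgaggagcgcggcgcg
Eif4h: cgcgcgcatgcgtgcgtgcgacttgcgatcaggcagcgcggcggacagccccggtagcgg

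A start window, from 250 bases before to 50 bases after an annotated start, was given for 49 of the 65 factor genes, 61 windows in all. No window was touched by a peak in either list. Among the 21262 windows of 17491 protein-coding genes, 0.475% were touched in the TRE-Msi2 list and 0.296% in the WT list, so windows with a peak were rare everywhere. In genes with a peak in the list, 1.62% of windows were touched in TRE-Msi2 and 1.21% in WT. Most of a window lies before the start, so an absence from 61 windows tells little. A pyrimidine tract lay within 50 bases of a start in 18 of the 49 factor genes (36.7%), against 34.6% of all protein-coding genes and 49 of 65 ribosomal protein genes (75.4%). On the other strand the same letters occurred in 7 factor genes (14.3%) and in 34.7% of all genes. Of the 25 factor genes with a window and a TRE-Msi2 peak 8 had a tract (32.0%), and of the 24 with a window and no TRE-Msi2 peak 10 did (41.7%). On the other strand the same letters occurred in 24.0% of the factor genes with a peak and 4.17% of those without. Genes can have several windows (29 for the 25 genes, 32 for the 24), and no difference was tested. The letters TATATAA, which overlap none of the tracts, occurred after the annotated start in Eef1a1, at 23 nt, and in Eif1, at 7 nt. That was 2 of 49 factor genes (4.08%) and 1.3% of all protein-coding genes, with 0 factor genes and 0.366% of all genes on the other strand. A TATA box normally precedes a start, so the annotated first base of these genes may lie before the one in use, which was not tested. In Eef1a1 the marked letters precede TATATAA, so they may lie outside the transcript, and Eef1a1 is still counted among the 18.

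Translation factor genes held peaks more often than protein-coding genes at large in both lists. Of the 65 genes, 31 (47.7%) held a TRE-Msi2 peak, against 24.9% of all protein-coding genes, and 27 (41.5%) held a WT peak, against 20.3%. These counts include Eef2kmt, whose only peak in each list is on the opposite strand. Without such peaks 30 factor genes held a TRE-Msi2 peak, 26 a WT peak and 26 a peak in both lists. The median gene span was 15.0 kb for the factors and 17.1 kb for all protein-coding genes, and at the factors' spans the share of genes with a peak was 24.7% in TRE-Msi2 and 19.8% in WT. Factor genes with a TRE-Msi2 peak had a median span of 19.2 kb, those with a WT peak 19.5 kb and those with none 12.6 kb. The ranges overlap widely: Eif1, at 2.15 kb, held peaks, and Eif4e3, at 71.0 kb, held none. RNA level is not known here, so the shares are matched for span alone and not for RNA level.

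The same 27 genes made up the WT set and the shared set, so 41.5% of factors held a peak in both lists, against 19.1% of all protein-coding genes. A TRE-Msi2 peak without a WT peak was found in 4 factor genes (6.15%; 5.75% of all protein-coding genes), namely Eif2b1, Eif3l, Eif3m and Eif4ebp3. A WT peak without a TRE-Msi2 peak was found in 0 (1.2% of all protein-coding genes). Neither list held a peak in 34 factor genes (52.3%). With only 65 genes, the share with a TRE-Msi2 peak alone lay close to the value for all genes.

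A larger share of factor genes than of all genes held several peaks. At least 3 TRE-Msi2 peaks lay in 12 factor genes (18.5%), against 6.43% of all protein-coding genes, and at least 3 WT peaks lay in 8 (12.3%), against 3.98%. The 31 factor genes of the TRE-Msi2 list had a median of 2 peaks and the 27 of the WT list a median of 1, while the median over all genes with a peak was 1 in both. Exactly 1 peak was held by 12 of the 31 in TRE-Msi2 (38.7%; 53.7% of all genes with a peak) and by 14 of the 27 in WT (51.9%; 58.9%). The median highest score was 33 in the TRE-Msi2 list (interquartile range 24 to 40.2), against 28 for all genes with a peak (23 to 34.3). In the WT list it was 25 (17.8 to 31), against 21 for all genes with a peak (18 to 27). Peaks covered a median of 5.35% of the factor gene span in TRE-Msi2 and 3.4% in WT, against 1.63% in TRE-Msi2 and 1.28% in WT over all genes with a peak.

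**Figure D1:**
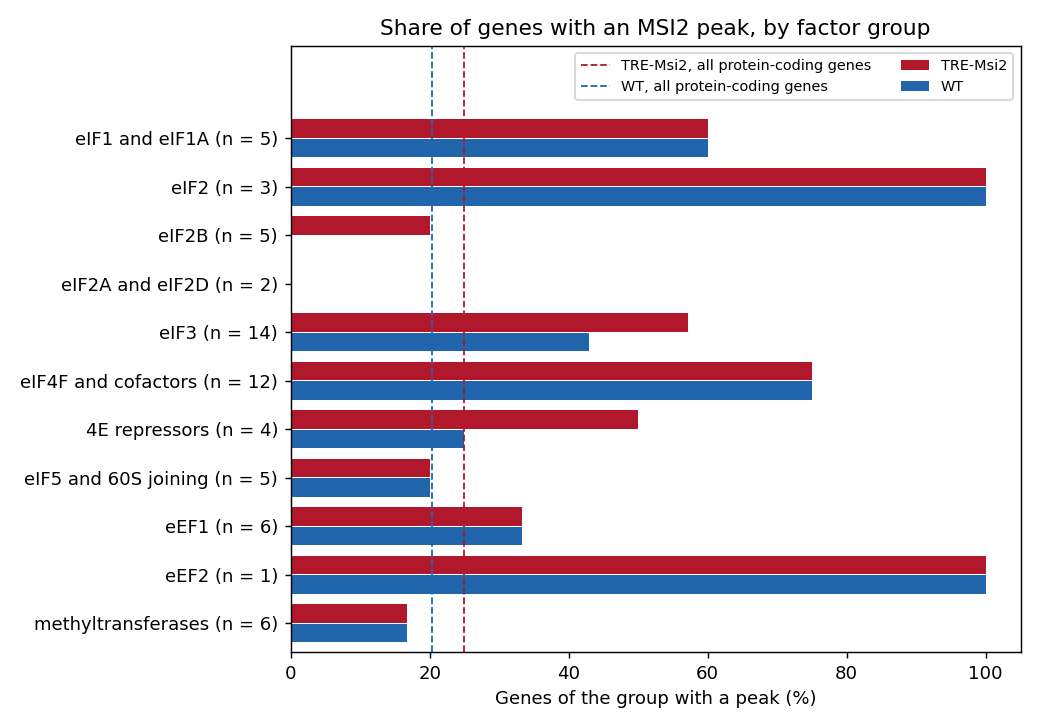
Share of genes with at least 1 MSI2 peak in each factor group, in percent, with TRE-Msi2 (red) above WT (blue) and n the number of genes. Dashed lines mark all protein-coding genes, 24.9% in TRE-Msi2 and 20.3% in WT. The eIF2 genes and eIF4F with its cofactors stand above both lines. The eIF2B, eIF5 and methyltransferase groups do not, but have only 5 or 6 genes each, so a single gene moves their shares widely. The same holds for eIF2, with 3 genes. The methyltransferase peak is on the strand opposite to Eef2kmt.

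Complexes differed in how many of their genes held peaks, as the chart of shares by factor group shows. All 3 eIF2 subunit genes and 9 of 12 genes of eIF4F and its cofactors held a peak in both lists. The 14 eIF3 genes gave 8 in TRE-Msi2 and 6 in WT. At the other end, eIF2B gave 1 of 5 genes in TRE-Msi2 and 0 in WT. The genes of eIF2A and eIF2D, which can bring initiator tRNA without eIF2, gave 0 of 2 in either list. All protein-coding genes gave 24.9% in TRE-Msi2 and 20.3% in WT, so counts this low in groups this small are not set apart from that share. Per kb of gene span, eEF2 held 0.34 peaks in TRE-Msi2 and 0.17 in WT, but it is 1 gene of 5.88 kb with 2 TRE-Msi2 peaks and 1 WT peak. The genes of eIF1 with eIF1A held 0.152 in TRE-Msi2 and 0.127 in WT. On the same scale eIF2 held 0.185 peaks in TRE-Msi2 and 0.142 in WT, and eIF4F with its cofactors held 0.0707 in TRE-Msi2 and 0.0464 in WT. The 4E repressors held 0.0952 in TRE-Msi2 and 0.0595 in WT. The eIF3 genes held 0.048 in TRE-Msi2 and 0.0309 in WT, and the eIF2B genes 0.01 in TRE-Msi2 and 0 in WT. The eIF5 group held 0.0622 in TRE-Msi2 and 0.0311 in WT, eEF1 0.0487 in both and the methyltransferases 0.011 in both. A wide peak counts once here, and no such value was made for all protein-coding genes. These groups have few genes each, and no group was tested against another.

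**Figure D2:**
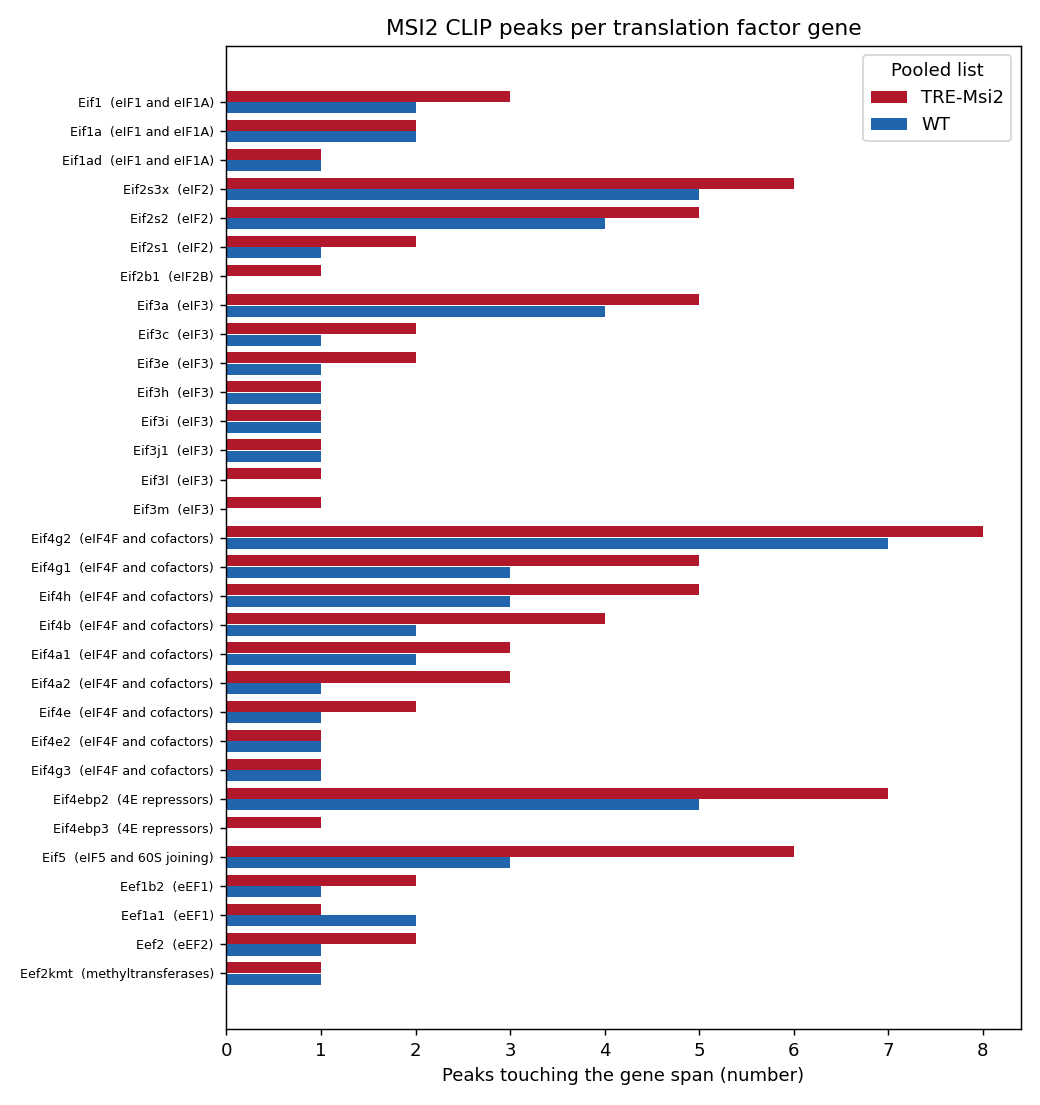
Number of MSI2 peaks touching the span of each of the 31 factor genes with a peak, with TRE-Msi2 (red) above WT (blue), grouped by complex. Eif4g2 holds the most in both lists, 8 in TRE-Msi2 and 7 in WT, and Eef1a1 is the gene with more peaks in WT, because 1 wide TRE-Msi2 peak covers both WT peaks.

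Among the factors that keep the scanning ribosome at the right start codon, Eif1 stood out. Eif1, which guards start codon choice, had the highest score of any factor gene in the TRE-Msi2 list, 71, at the 98.5th percentile of protein-coding genes with a peak. That peak, 800 nt wide at chr11:100321287-100322086, was called at the same position in WT with a score of 36.8. A neighbour at chr11:100320687-100321086 scored 53 in TRE-Msi2 and 25 in WT, and another peak, of 29 (Poisson 95% interval 19.4 to 41.6), was in the TRE-Msi2 list alone. Together the peaks covered 65.1% of the 2.15-kb gene in TRE-Msi2 and 55.8% in WT. Its close paralog Eif1b, with a span of 2.72 kb, held 0 peaks in both lists. Scores of wider peaks may not be on the scale of single-bin counts. The highest single-bin score of a factor gene in TRE-Msi2 was 58, in Eif4h. With single-bin peaks alone, Eif1 held none in WT.

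Eif1a, a gene for eIF1A, which works beside eIF1 in scanning, held 2 peaks in each list. They scored 33 and 28.5 in TRE-Msi2 and 18 and 23 in WT. Its X-linked paralog Eif1ax held 0. Eif1ad, which encodes a protein related to eIF1A, held 1 peak of 21.7 in TRE-Msi2 and 18.7 in WT.

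All 3 eIF2 genes held a peak in both lists. Eif2s3x, the X-linked gene for the gamma subunit, which binds GTP and the initiator tRNA, held 6 peaks in TRE-Msi2 and 5 in WT, with highest scores of 31 and 27. Eif2s2, for the beta subunit, held 5 in TRE-Msi2 and 4 in WT. Its TRE-Msi2 scores were 41, 39, 35, 25 and 21, and the WT scores were 30, 22, 21 and 16. Each of the WT peaks of Eif2s2 had the same position as a TRE-Msi2 peak, at 1.15, 2.15, 7.15 and 13.0 kb from the end of the span. The peak of 41 (Poisson 95% interval 29.4 to 55.6) in TRE-Msi2, at 1.15 kb, and that of 30 (20.2 to 42.8) in WT, at 13.0 kb, have intervals that overlap those of the next highest Eif2s2 peak in their lists. Eif2s1, for the alpha subunit, whose phosphorylation shuts down initiation under stress, had the weakest signal of the complex. Its peaks scored 23 and 20 in TRE-Msi2, and its WT peak scored 15, the lowest single-bin value of that list. In the upper 50% of peaks by score eIF2 had 2 genes in each list, without Eif2s1.

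Few peaks lay in the genes of the exchange factor eIF2B, though 1 of 5 genes is near the 24.9% of all protein-coding genes in TRE-Msi2. Eif2b1, for its alpha subunit, held 1 TRE-Msi2 peak of 22 (Poisson 95% interval 13.8 to 33.3) and none in WT. Eif2b2, Eif2b3, Eif2b4 and Eif2b5 held none in either list. A score of 22 lies close to the lowest single-bin score of that list, and in the upper 50% of peaks by score eIF2B had 0 genes.

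Among the eIF3 genes, which encode the large scaffold on the small subunit, Eif3a held the most peaks. This gene for the largest subunit held 5 in TRE-Msi2, scoring 38, 24, 22, 22 and 14.8, and 4 in WT, scoring 24, 17, 16.5 and 15. Its strongest peak in both lists lay 20.9 kb before the end of a 29.6-kb span. Eif3e had the highest score of the complex, 48 in TRE-Msi2 (Poisson 95% interval 35.4 to 63.6) and 27 in WT (17.8 to 39.3), at the same 200 bases, chr15:43250055-43250254, 0.115 kb from the end of the span. Eif3j1, for the loosely attached subunit, held 1 peak per list, 33 in TRE-Msi2 and 16 in WT, and its paralog Eif3j2 held none.

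The remaining eIF3 signals were weaker. Eif3c, for a core subunit, held 2 TRE-Msi2 peaks, of 24 and 22, and 1 WT peak, of 17; the shared peak also touches the small nuclear RNA gene Gm24596, and the reads cannot be given to either. Eif3h scored 24 in TRE-Msi2 and 15 in WT, and Eif3i 21 in TRE-Msi2 and 15 in WT. Eif3l and Eif3m each held a TRE-Msi2 peak of 21 and no WT peak, and the Eif3m peak also touches the protein-coding gene Ccdc73. Eif3b, Eif3d, Eif3f, Eif3g and Eif3k held none. In the upper 50% of peaks by score eIF3 had 3 genes in TRE-Msi2 (Eif3a, Eif3e and Eif3j1) and 2 in WT (Eif3a and Eif3e), so its other genes held only peaks of lower score.

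The eIF4F group held the most peaks, 32 in TRE-Msi2 and 21 in WT. Eif4g2, whose protein resembles eIF4G but lacks the part that binds eIF4E, led all factor genes with 8 TRE-Msi2 and 7 WT peaks. Its TRE-Msi2 scores ran between 20.7 and 39.5 and its WT scores between 16 and 29. The peaks covered 38.5% of the 15.0-kb span in TRE-Msi2 and 29.2% in WT, and the widest reached 2200 nt in TRE-Msi2 and 2000 nt in WT. A peak in each list touches the small nucleolar RNA gene LOC115486847 inside it.

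Eif4g1, for the main scaffold, held 5 TRE-Msi2 peaks, scoring 45, 33, 23, 21.2 and 20, and 3 WT peaks, scoring 31, 16 and 16. The strongest in both lists began at the same base, 20680728 of chromosome 16, and its middle lay 11956 nt before the end of the span in TRE-Msi2 and 12056 nt in WT. Eif4g3, another member of the family, is the longest factor gene at 215 kb, yet held a single weak peak, of 21 in TRE-Msi2 and 17 in WT. The 3 paralogs therefore differed in peak number in the order Eif4g2, Eif4g1, Eif4g3 in both lists.

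The helicase genes also differed. Eif4a2 had the highest score of any factor gene in the WT list, 47.5, and 44 in TRE-Msi2, in a peak of 800 nt at chr16:23113128-23113927, 0.605 kb from the end of the span. With single-bin peaks alone Eif4a2 held none in WT, where the highest single-bin factor score was 37, in Eif4e2. Eif4a2 held 2 more peaks, of 31 and 28, in TRE-Msi2 alone. Eif4a1, the main helicase of the complex, held 3 TRE-Msi2 peaks, of 34, 33 and 24, and 2 WT peaks, of 27 and 18. Eif4a3, which serves the exon junction complex, held none, and neither did its copy Eif4a3l1.

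Of the cap-binding genes, Eif4e held TRE-Msi2 peaks of 34 and 22.5 and 1 WT peak of 31 (Poisson 95% interval 21.1 to 44.0). Eif4e2, for a cap-binding protein known as a repressor, held a single peak with a higher score, 47 in TRE-Msi2 (34.5 to 62.5) and 37 in WT (26.1 to 51.0). The interval of the Eif4e peak of 34 in TRE-Msi2 was 23.5 to 47.5, so the intervals of Eif4e and Eif4e2 overlap in each list. Eif4e3 and Eif4e1b held none.

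The helicase cofactors Eif4h and Eif4b, which stimulate eIF4A, were both covered. Eif4h held 5 TRE-Msi2 peaks, scoring 58, 43.5, 32.5, 26 and 20, and 3 WT peaks, scoring 31, 24.5 and 20.7. Its peak of 58 (Poisson 95% interval 44.0 to 75.0) at chr5:134627531-134627730 lay 7.76 kb before the end of the span and was also the strongest in WT, at 31 (21.1 to 44.0). The Eif4h peak at the end of the span also touches the neighbouring gene Lat2. Eif4b held 4 peaks in TRE-Msi2 and 2 in WT, and had a lower highest score in TRE-Msi2, 29, than in WT, 35. The TRE-Msi2 peak is 1000 nt wide and the WT peak inside it 600 nt, so the scores are not of the same bases.

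Repressors of eIF4E showed a split between paralogs. Eif4ebp2 held 7 TRE-Msi2 peaks, the second most of any factor gene, with scores of 36, 36, 23, 22, 22, 21 and 20. Its 5 WT peaks scored 25, 23, 23, 20 and 17, and each had the same 200 bases as a TRE-Msi2 peak. The middle of each peak lay within 6.46 kb of the end of a 24.3-kb span. Eif4ebp1, the paralog most studied as a target of the growth kinase mTOR, held none in either list. Eif4ebp3 held a TRE-Msi2 peak of 30 (Poisson 95% interval 20.2 to 42.8) and none in WT. Eif4enif1, which shuttles eIF4E into the nucleus, held none.

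**Figure D3:**
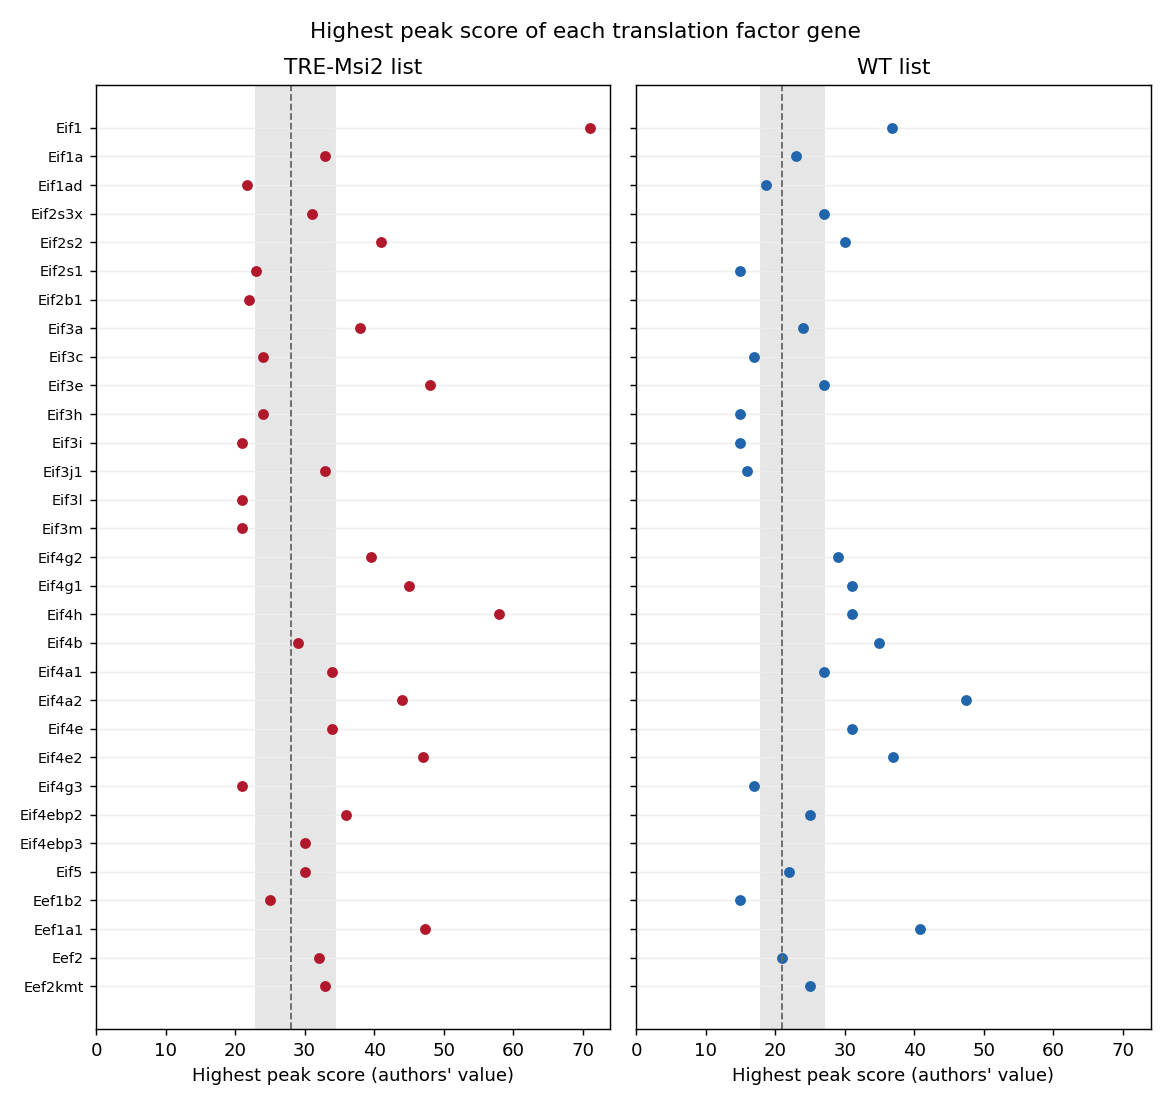
Highest peak score of each of the 31 factor genes with a peak, in the TRE-Msi2 list (left, red) and the WT list (right, blue), as the authors' value; a missing point means no peak. The dashed line and grey band are the median and interquartile range over all protein-coding genes with a peak (28, 23 to 34.3 in TRE-Msi2; 21, 18 to 27 in WT); Eif1 is highest in TRE-Msi2 and Eif4a2 in WT, each in a peak of 800 nt.

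In the group of eIF5 and the factors that join the large subunit, Eif5 carried all the peaks. Eif5, which makes eIF2 hydrolyse its GTP at the start codon, held 6 in TRE-Msi2, scoring 30, 29.6, 28, 24, 24 and 16.7, and 3 in WT, scoring 22, 21.4 and 19. They covered 30.0% of its 8.65-kb span in TRE-Msi2 and 18.5% in WT. The 3 WT peaks had the same positions as 3 TRE-Msi2 peaks, among them a 1200-nt peak at chr12:111544590-111545789. Eif5b, the GTPase of subunit joining, Eif6, which keeps the subunits apart, and Eif5a and Eif5a2, the factors that carry hypusine, held none in either list.

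Among the elongation factor genes, Eef1a1, Eef1b2 and Eef2 held peaks. Of the 6 eEF1 genes, 2 held a peak in both lists. Eef1a1, for the abundant form of eEF1A, held 1 TRE-Msi2 peak 2400 nt wide with a score of 47.3, and 2 WT peaks of 40.9 and 22.8 inside the same interval. They covered 71.5% of its 3.27-kb span in TRE-Msi2 and 65.4% in WT, the highest cover of any factor gene in either list. At p of 0.01 or less, eEF1 kept 1 gene in TRE-Msi2 and 2 in WT. Single-bin peaks of 21, as in Eif3i, passed that cut, so Eef1b2 was kept and the TRE-Msi2 peak of Eef1a1 failed it. Eef1a2, the form of muscle and neurons, held none. Eef1b2, for an exchange factor of eEF1A, held peaks of 25 and 21 in TRE-Msi2 and 1 of 15 in WT, and the other subunits of that complex, Eef1d, Eef1g and Eef1e1, held none.

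Eef2, the translocase, held peaks of 32 and 20.7 in TRE-Msi2 and 1 of 21 in WT. In TRE-Msi2 the stronger was 400 nt wide, 3.25 kb from the end of the span, and the WT peak lay inside it. Of the 6 genes for methyltransferases that modify eEF1A or eEF2, Eef2kmt alone held a peak, 33 in TRE-Msi2 and 25 in WT at chr16:5245108-5245307. Its reads run opposite to the gene in both lists, so they are not from its transcript as annotated, and without such peaks the group has 0 genes. Eef1akmt1, Eef1akmt2, Eef1akmt3, Eef1akmt4 and Eef1aknmt held none, as did the readthrough gene Eef1akmt4-ece2, which shares a start with Eef1akmt4.

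**Figure D4:**
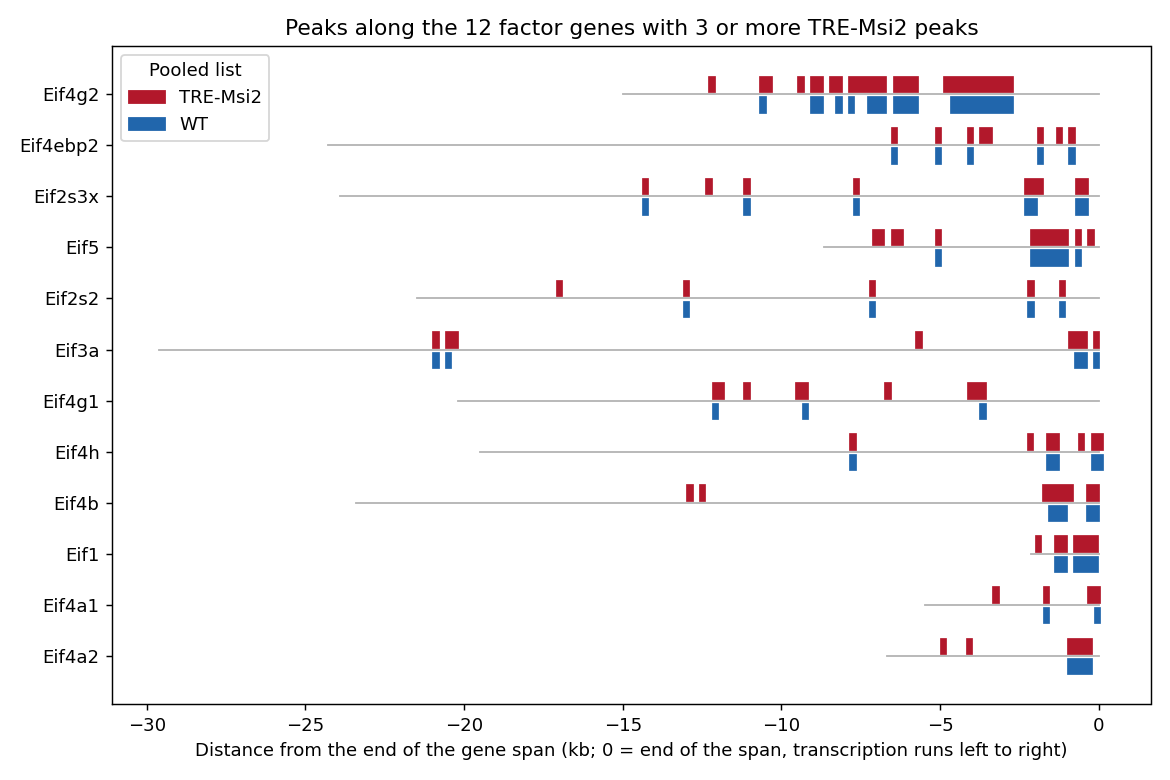
Peaks along the 12 factor genes with at least 3 TRE-Msi2 peaks, with TRE-Msi2 (red) above and WT (blue) below each gene line, by distance from the end of the gene span in kb, where 0 is the end and transcription runs left to right. The peaks of Eif4ebp2 have their middles within 6.46 kb of the end, Eif3a and Eif2s2 have peaks both near the end and far inside, and Eif4g1 has none nearer than 3.66 kb.

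Peaks of the factor genes lay near the ends of the spans about as often as peaks of other genes. The middle of the peak was in the last 2 kb for 39 of 86 in TRE-Msi2 (45.3%, Clopper-Pearson 95% interval 34.6 to 56.5) and 28 of 58 in WT (48.3%, 35.0 to 61.8). Over all protein-coding genes the shares were 42.0% in TRE-Msi2 and 47.1% in WT. In spans of at least 10 kb, 22 of 62 factor peaks in TRE-Msi2 (35.5%) and 16 of 44 in WT (36.4%) were in the last 2 kb, against 36.5% in TRE-Msi2 and 41.8% in WT over all such genes. The first 2 kb of those spans held 0 of 62 in TRE-Msi2, which allows up to 5.78%, and 0 of 44 in WT, which allows up to 8.04%. Over all genes of that length the share there was 2.46% in TRE-Msi2 and 2.61% in WT, so a lack of such peaks was not detectable at these numbers.

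The strongest peak of the gene lay in the last 2 kb for 19 of 31 genes in TRE-Msi2 (61.3%) and 14 of 27 in WT (51.9%), against 56.1% in TRE-Msi2 and 59.9% in WT over all genes with a peak. For 9 genes in TRE-Msi2 (29.0%) and 6 in WT (22.2%) it lay in the last 500 nt, as in Eif3e and Eif1, against 27.7% in TRE-Msi2 and 29.0% in WT over all genes. In Eif3a, Eif4g1 and Eif4h it lay far inside the span in both lists, as the map of peaks along 12 genes shows. Exons and untranslated regions were not used here, so an inner peak may be in an exon or an intron. Where the strand of the gene was given, 70 of 71 factor peaks in TRE-Msi2 (98.6%) and 45 of 46 in WT (97.8%) were on it, against 84.2% in TRE-Msi2 and 82.4% in WT over all protein-coding genes. The exception in each list was the Eef2kmt peak.

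Of the 86 factor peaks in TRE-Msi2, 56 were overlapped by a WT peak (65.1%, 54.1 to 75.1), and all 58 WT factor peaks were overlapped by a TRE-Msi2 peak (100%, 93.8 to 100). Over all protein-coding genes these shares were 58.7% in TRE-Msi2 and 91.0% in WT. The lists differ in length, and after the TRE-Msi2 list was shortened by score to as many peaks as WT, the WT share was 82.8% (70.6 to 91.4) for the factors and 73.4% for all protein-coding genes.

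**Figure D5:**
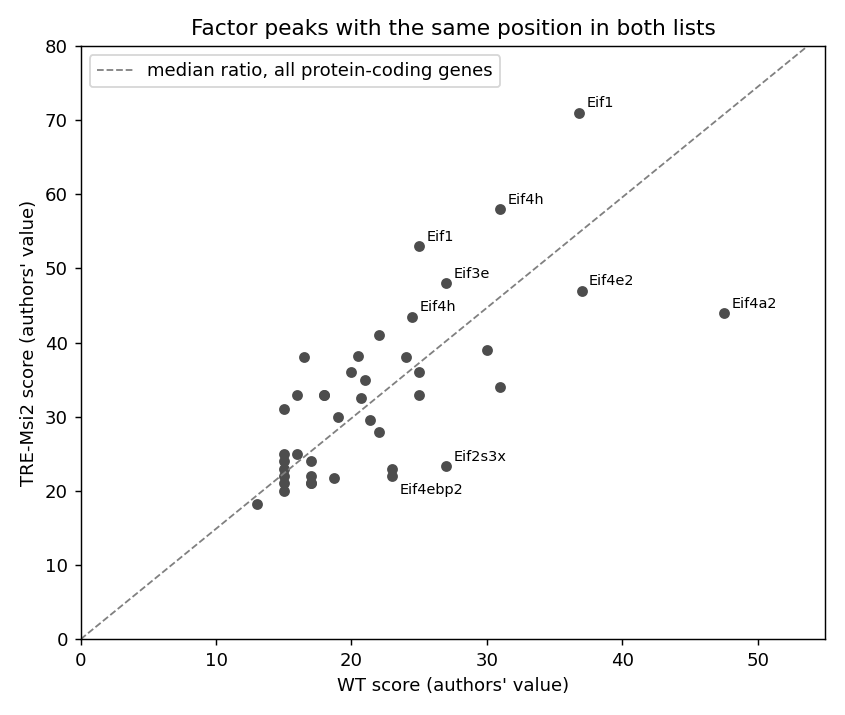
Scores of the 41 factor peaks with identical start and end in both lists, TRE-Msi2 (vertical) against WT (horizontal), as the authors' value. The dashed line is the median ratio over all protein-coding genes, 1.49; the named peaks of Eif1, Eif3e and Eif4h lie above it, and those of Eif4a2, Eif4e2, Eif2s3x and Eif4ebp2 below it.

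For 41 factor peaks the start and end were identical in both lists. Their TRE-Msi2 score divided by the WT score had a median of 1.53 (interquartile range 1.29 to 1.8), against 1.49 (1.26 to 1.72) over 4464 such peaks of all protein-coding genes, so the factors followed the general offset between the lists. The ratio was over 1 in 37 of the 41. It was highest in Eif4g2, where the peak at chr7:111076687-111077086 scored 38 in TRE-Msi2 and 16.5 in WT, a ratio of 2.3, at the 97.8th percentile of all such peaks. Eif1 (2.12), Eif2s3x (2.07) and Eif3j1 (2.06) also had peaks with ratios over 2. The ratio was lowest in another peak of Eif2s3x, 23.3 in TRE-Msi2 and 27 in WT (0.864), then in Eif4a2 (0.926) and in Eif4ebp2 (22 in TRE-Msi2 and 23 in WT, 0.957). The 4 shared peaks of Eif2s3x spanned 0.864 to 2.07, while the 2 of Eif1 had 1.93 and 2.12. The ratios of 2.3, 2.12, 0.864 and 0.926 are of wider peaks, whose scores are not plain counts. The 30 single-bin factor pairs ran from 0.957 to 2.07. Their median was 1.5, against 1.52 over the 3131 single-bin pairs of all protein-coding genes. The ratios carry the counting error of both scores and were not tested.

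The factor spans hold 15 small nucleolar RNA genes in 8 hosts, and a peak touched 1 of them in each list, the one in Eif4g2. Over all 461 small nucleolar RNA genes inside protein-coding spans the share touched was 4.12% in TRE-Msi2 and 3.47% in WT. Of the 4 microRNA genes in Eif3a, Eif3b, Eif4e and Eif4g3, 0 were touched in either list, against 1.46% in TRE-Msi2 and 0.971% in WT over 824 such genes. The 1 small nuclear RNA gene, in Eif3c, was touched in both, against 12.8% in TRE-Msi2 and 13.1% in WT over 352. The gene table names 14 pseudogenes of factor genes, and 0 held a peak in either list. The treatment of reads that map to several places is not stated in the sources used here, so reads from near-identical copies of Eif1, Eef1a1 or Eif4a1 may be missing or shared.

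Other genes of the translation system are given for comparison. Over all protein-coding genes, 24.9% held a TRE-Msi2 peak and 20.3% a WT peak, and no list was tested against these shares. Of 10 kinases that act on the factors, 3 held a TRE-Msi2 peak and 1 a WT peak. Eif2ak2, the kinase activated by double-stranded RNA, had 37 in TRE-Msi2 and 33 in WT, while Eef2k, which inactivates eEF2, had 30 in TRE-Msi2 and none in WT. Eif2ak1, the kinase controlled by heme, had 25 in TRE-Msi2 and none in WT. Of 27 other regulators, the same 14 held a peak in both lists, led by Pabpc1, the poly(A)-binding protein, with 97 in TRE-Msi2 and 54 in WT. Atf4, the stress transcription factor translated when eIF2 is phosphorylated, had 72.2 in TRE-Msi2 and 29.6 in WT. Larp1, which binds the pyrimidine tracts, had 47 in TRE-Msi2 and 29 in WT, and the helicase Ddx3x 45.1 in TRE-Msi2 and 34.8 in WT. Pabpc1 and Atf4 exceeded the highest factor score of the TRE-Msi2 list, 71 in Eif1.

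Of 85 ribosomal protein genes, 57 held a TRE-Msi2 peak and 42 a WT peak, larger shares than the 47.7% (TRE-Msi2) and 41.5% (WT) of the factor genes. The factor genes are longer, with a median span of 15.0 kb, against 3.17 kb for the ribosomal protein genes. Of 22 genes for cytosolic aminoacyl-tRNA synthetases and their scaffold proteins, 8 held a TRE-Msi2 peak and 4 a WT peak, led by Nars with 38.3 in TRE-Msi2 and 23 in WT. In TRE-Msi2 that share is above the 24.9% of all protein-coding genes, and in WT it is below the 20.3%. Of 10 mitochondrial translation factors, 2 held a TRE-Msi2 peak and 1 a WT peak. They were Gfm2, a ribosome recycling factor, with 51 in TRE-Msi2 and 24 in WT, and Mtif2 with 21 in TRE-Msi2 and none in WT.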

How the data were processed

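RNA bound by MSI2 was sequenced from 4 libraries, and the authors deposited 2 peak lists, each pooling the 2 libraries of a genotype. Per the submitters' processing notes, cutadapt, TopHat and the builds mm9 and mm10 were used; their versions are not stated in the labels or notes. The deposited file names describe Piranha peaks after duplicate removal. Each peak in the deposited lists carries a score and a p-value in 1 cell. The p-value was over 0.05 in 4774 TRE-Msi2 and 2566 WT peaks and in 0 single-bin peaks, and was used only in an alternative. Single-bin peaks made up 9963 of the 16939 TRE-Msi2 and 7627 of the 12061 WT peaks. Most of the wider peaks in each list therefore had a p-value over 0.05. Single-bin scores were whole numbers in 96.7% of TRE-Msi2 and 99.1% of WT cases, which is why they are read as counts per bin.

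Peaks were joined to RefSeq GRCm38.p6 gene spans at an overlap of 1 base (Python 3.11.15, pandas 2.3.3, numpy 2.4.6, scipy 1.17.1). Gene strand came from the RefSeq promoter table, for 49 of 65 factor genes and 17491 of 21896 protein-coding genes, and otherwise the read direction was used. Lists were overlapped at 1 base on the same strand. Shares have exact Clopper-Pearson and single-bin scores exact Poisson 95% intervals. The code that joins peaks to genes and overlaps the lists was checked on simulated data, and the code for the 95% intervals was not. At the factors' spans means over 10 span classes. No test across genotypes was made. Values are given for the leading members of each complex, for paralogs and for genes in 1 list. For the kinases, other regulators, synthetases and mitochondrial factors they are given for up to 4 of the highest genes. For ribosomal protein genes and cell type markers only counts are given. Members, complexes and lists were chosen with earlier results of these data known. Alternatives were score, list length, peak width, shared spans, strand, p-value, overlap and end window.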

Additional observations from a re-analysis of the deposited data

How the results depend on the processing

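The number of factor genes with a peak was 22 to 31 in TRE-Msi2 and 19 to 27 in WT over the alternatives, and 19 to 27 genes held a peak in both. In the upper 50% of peaks by score, 22 of 65 factor genes remained in TRE-Msi2 and 19 of 65 in WT. Of 21896 protein-coding genes, 3629 (16.6%) remained in TRE-Msi2 and 2926 (13.4%) in WT. The share of WT factor peaks overlapped by a TRE-Msi2 peak, 100% as reported, was 87.9% in the upper 50% by score, 82.8% with as many TRE-Msi2 peaks as WT peaks, taken by score, 75.0% for single-bin peaks alone and 86.5% at p of 0.01 or less; each of these leaves fewer peaks. With an end window of 1 kb the share of factor peaks near the end was 27.9% in TRE-Msi2 and 29.3% in WT, and with 5 kb 61.6% in TRE-Msi2 and 62.1% in WT. Of the other values of the main results, 56 stayed within their intervals or within 1.5 times. For single complexes, 12 counts of genes differed by more than that and 112 did not. Left out are 3 values of the main results and 30 of the complexes that could not differ, since the count was 0 or the WT list was unaltered. In particular, with equal list lengths eIF3 had 5 genes in TRE-Msi2, and for single-bin peaks eEF2 had 0. At p of 0.01 or less eEF1 had 1 gene in TRE-Msi2, without Eef1a1. No paired analysis was possible because each list pools its libraries and carries no replicate columns, and no library could be left out. Weak peaks near the lowest score are the least certain, since the depth is unknown.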
